A study of Mus musculus with 11 samples.

Results

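The genes described here are 7 fatty acid desaturases and elongases, Fads1, Fads2, Scd2, Elovl1, Elovl2, Elovl3 and Elovl5, chosen by symbol from the 54232 genes counted in mouse hepatocyte RNA-Seq. All 7 passed the filter on low counts. Hepatocytes came from adult male C57BL/6 mice that either carried floxed Xbp1 alleles without Cre (Xbp1 fl/fl) or had lost Xbp1 through Cre recombinase under the albumin promoter (Xbp1 LKO), so the deletion was limited to cells that use that promoter. Both genotypes ate either chow or the HFS (high fat sugar) diet, a Western diet with fructose and glucose in the drinking water, for up to 6 weeks and were fasted before the cells were isolated and purified on Percoll. There were 3 chow-fed Xbp1 fl/fl, 2 chow-fed Xbp1 LKO, 3 HFS-fed Xbp1 fl/fl and 3 HFS-fed Xbp1 LKO libraries. A chow library held 1 mouse and an HFS library pooled 2 mice, so the spread within HFS groups was already averaged over animals.

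Mammalian liver makes long polyunsaturated fatty acids from the essential fatty acids of the diet by alternating desaturation and elongation in the ER membrane. FADS2 introduces the entry double bond, ELOVL5 lengthens the product, FADS1 adds the next double bond and yields arachidonic and eicosapentaenoic acid, and ELOVL2 carries the chains on towards docosahexaenoic acid. ELOVL1 and ELOVL3 elongate saturated and monounsaturated chains, and SCD2 is a stearoyl-CoA desaturase that makes monounsaturated fatty acids, chiefly outside the adult liver, where SCD1 is the abundant form. Many of these genes are known targets of SREBP-1c, LXR and PPARα, and polyunsaturated fatty acids themselves lower SREBP-1c activity. XBP1 is the transcription factor that the ER stress sensor IRE1α activates by splicing.

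Xbp1 itself, the targeted gene, was read at 194 to 221 CPM (counts scaled to the library total after TMM scaling) in chow-fed Xbp1 fl/fl, 95.7 and 128 CPM in chow-fed Xbp1 LKO, 242 to 301 CPM in HFS-fed Xbp1 fl/fl and 97.3 to 135 CPM in HFS-fed Xbp1 LKO libraries. Every Xbp1 LKO library therefore lay below every Xbp1 fl/fl library, and the remaining reads are those of a whole-gene count, which includes exons outside the deletion. Total counts were 19191032 to 23888401 per library. The summed level of 8 hepatocyte markers was 134520 to 166750 CPM in chow-fed and 114940 to 132880 CPM in HFS-fed Xbp1 fl/fl libraries, against 37666 to 71060 CPM and 54636 to 83823 CPM in the Xbp1 LKO groups. Alb was the largest single term of this sum in every library. Fewer hepatocytes and lower levels of these marker transcripts per hepatocyte cannot be told apart in such bulk samples. Chow-fed Xbp1 LKO replicate 2 stood apart, with the lowest hepatocyte marker sum of the 11 libraries and with Dbp, a clock output gene, at 35.7 CPM against 85.1 to 130 CPM elsewhere. The genotype values of the 7 genes on chow are therefore also given without it.

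RefSeq promoter windows on GRCm38.p6 were found for 4 of the 7 genes, Fads2, Elovl1, Elovl2 and Elovl5. The 250 bases before the annotated start are shown for all 4, because Fads2, Elovl2 and Elovl5 had the same order of levels over the groups and Elovl1 did not. They are written 5′ to 3′ on the strand of the gene. Capitals mark CCAAT (reverse complement ATTGG), the E-box CACGTG and CCACG (reverse complement CGTGG), the core of the ER stress response element.
Fads2, chr19:10101504-10101753, minus strand: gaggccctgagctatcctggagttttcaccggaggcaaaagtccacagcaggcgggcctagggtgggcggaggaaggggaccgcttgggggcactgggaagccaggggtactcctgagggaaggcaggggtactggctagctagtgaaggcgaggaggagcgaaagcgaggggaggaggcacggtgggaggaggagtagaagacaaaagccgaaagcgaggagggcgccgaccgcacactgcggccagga
Elovl5, chr9:77917115-77917364, plus strand: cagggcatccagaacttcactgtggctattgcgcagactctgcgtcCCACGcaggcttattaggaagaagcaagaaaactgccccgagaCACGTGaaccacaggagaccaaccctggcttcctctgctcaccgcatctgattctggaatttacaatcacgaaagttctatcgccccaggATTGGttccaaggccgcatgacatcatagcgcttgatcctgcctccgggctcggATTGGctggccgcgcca
Elovl2, chr13:41220404-41220653, minus strand: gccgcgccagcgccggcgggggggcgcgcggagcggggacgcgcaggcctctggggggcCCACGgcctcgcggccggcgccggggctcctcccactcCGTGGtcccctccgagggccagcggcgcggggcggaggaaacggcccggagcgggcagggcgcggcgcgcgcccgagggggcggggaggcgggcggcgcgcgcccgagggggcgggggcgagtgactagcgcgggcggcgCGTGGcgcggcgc
Elovl1, chr4:118427843-118428092, plus strand: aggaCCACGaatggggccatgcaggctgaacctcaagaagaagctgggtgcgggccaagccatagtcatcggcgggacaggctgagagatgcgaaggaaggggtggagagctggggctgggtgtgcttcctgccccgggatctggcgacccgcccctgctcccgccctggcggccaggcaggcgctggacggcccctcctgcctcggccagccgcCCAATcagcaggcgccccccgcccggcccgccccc

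The Fads2 window held none of these letters. The Elovl5 window held CCACG at position -204 from the start, CACGTG at -161 and ATTGG at -71 and -17. The Elovl2 window held CCACG or CGTGG at 3 positions and the Elovl1 window held CCACG at -246 and CCAAT at -35. Among 32851 mouse promoter windows of the same length, CCACG was present on either strand in 28.3%, CCAAT in 33.8% and CACGTG in 6.02%. The longer motifs searched on both strands, TCACNCCAC of sterol regulatory elements (1.05% of windows), TGACGTGG of the UPR element (0.563%) and the full ER stress response element (0.113%), were in none of the 4 windows shown. A second RefSeq start of Elovl1 and one of Elovl2 are not shown.

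The genes sit in several places. Fads1 (chr19:10182888-10196877, plus strand) and Fads2 (chr19:10062765-10101746, minus strand) are neighbours on chromosome 19 of GRCm38, and Scd2 (chr19:44293674-44306864) and Elovl3 (chr19:46131897-46135694) are farther along the same chromosome. Elovl5 lies at chr9:77917364-77984519, Elovl2 at chr13:41182381-41220405 and Elovl1 at chr4:118428093-118432953. Elovl1 and Elovl3 share exon sequence with Cdc20 and Pitx3 on the opposite strand, but these neighbours had only 378 and 398 counts over the 11 libraries together. Of the 50-base windows of the transcripts, 0 were shared with another gene for Fads1, Elovl2, Elovl3 and Elovl5, 0.152% for Fads2 and 0.139% for Elovl1. For Scd2 the share was 3.97%, mostly with Scd1, Scd3 and Scd4, so its few reads are uncertain.

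Per length of exon sequence (CPM per kb), Fads2 led in chow-fed Xbp1 fl/fl hepatocytes with a mean of 141, followed by Elovl2 at 135, Fads1 at 127, Elovl3 at 104 and Elovl5 at 89.1. The library ranges of neighbours in this order overlapped from Fads2 down to Elovl5, whereas Elovl1 at 15.7 and Scd2 at 0.167 were each apart from the gene above. On the HFS diet the Xbp1 fl/fl order was Fads2 (188), Elovl2 (165), Elovl5 (133), Fads1 (94.9), Elovl3 (76.5), Elovl1 (13.0) and Scd2 (0.198). Fads2 and Elovl2, and likewise Fads1 and Elovl3, overlapped there. In Xbp1 LKO hepatocytes Elovl3 led on chow at 141.5, apart from Elovl2 at 79.2, and on HFS Elovl2 (107.6), Fads2 (99.15), Elovl3 (91.0), Elovl5 (71.55), Fads1 (35.8) and Elovl1 (18.45) each overlapped its neighbour, with Scd2 (0.310) apart below them.

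**Figure D1:**
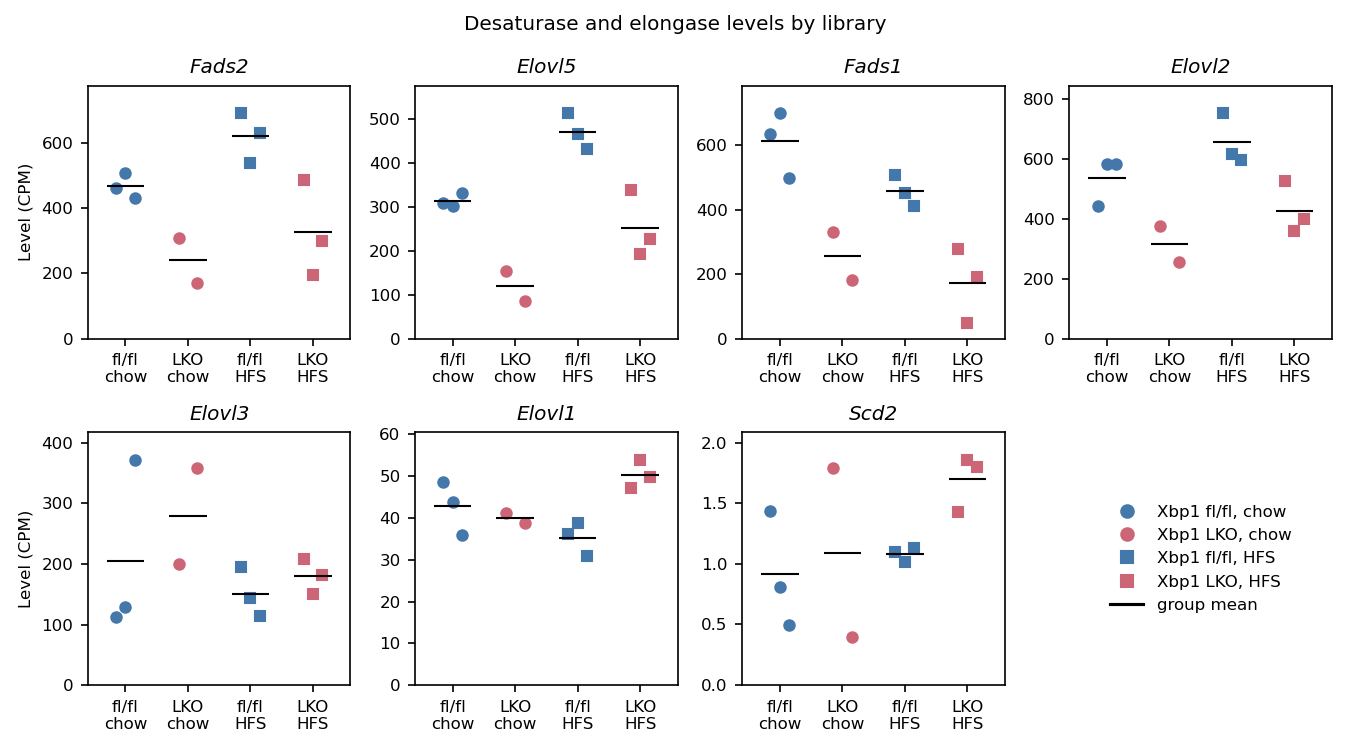
Level of each gene in CPM (linear axis from 0, a scale of its own per panel) in each of the 11 libraries, with a line at the group mean. Fads2, Elovl5, Fads1 and Elovl2 are lower in the red Xbp1 LKO libraries than in the blue Xbp1 fl/fl libraries of the same diet, with no overlap within a diet, while Elovl3, Elovl1 and Scd2 do not share this order.

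Setting Xbp1 LKO beside Xbp1 fl/fl hepatocytes asks which transcripts depend on hepatocyte Xbp1, on each diet. The 4 enzymes of polyunsaturated fatty acid synthesis, Fads2, Elovl5, Fads1 and Elovl2, were lower in every Xbp1 LKO library than in every Xbp1 fl/fl library of the same diet. Their fitted levels were 1.53 to 2.65 times lower. Elovl5 on chow passed the test across all genes, and none of the other 7 single-diet values of these enzymes did. Of the other genes, Elovl1 rose on the HFS diet and Elovl3 and Scd2 passed no test.

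Fads2 was read at 461, 507 and 430.0 CPM in chow-fed Xbp1 fl/fl and at 308 and 170 CPM in chow-fed Xbp1 LKO libraries. On HFS it was at 690.4, 537 and 630.2 CPM in Xbp1 fl/fl and at 486, 195 and 299 CPM in Xbp1 LKO libraries. Neither pair of groups overlapped, but the Xbp1 LKO libraries of a diet differed among themselves by more than those of Xbp1 fl/fl. The log2 fold change was -0.96 (SE 0.34, 95% interval -1.71 to -0.22, adjusted p = 0.142) on chow and -0.92 (SE 0.30, -1.57 to -0.27, adjusted p = 0.118) on HFS by the quasi-likelihood test of edgeR, with p-values adjusted by Benjamini-Hochberg over 13303 genes, which stands behind every adjusted p given here unless another tool is named. The value of Fads2 on chow was -0.60 (adjusted p = 0.682) without chow-fed Xbp1 LKO replicate 2.

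Elovl5 was read at 307, 302 and 332 CPM in chow-fed Xbp1 fl/fl and at 153 and 85.6 CPM in the Xbp1 LKO libraries. On HFS the Xbp1 fl/fl libraries were at 513, 464 and 431 CPM and the Xbp1 LKO libraries at 338, 191 and 227 CPM. The groups did not overlap on either diet, and the lowest Xbp1 LKO libraries were the replicates numbered 2. Elovl5 fell by 1.39 on the log2 scale on chow (SE 0.27, 95% interval -1.99 to -0.80, adjusted p = 0.0151), and on HFS the log2 fold change was -0.90 (SE 0.23, -1.41 to -0.39, adjusted p = 0.0546). Without chow-fed Xbp1 LKO replicate 2 the value on chow was -1.04 and no longer passed (adjusted p = 0.145), whereas the value on HFS was -0.90 and passed (adjusted p = 0.0242).

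Fads1 was read at 635, 699 and 499 CPM in chow-fed Xbp1 fl/fl and at 330.4 and 181 CPM in chow-fed Xbp1 LKO libraries. On HFS it was at 508, 452 and 409.6 CPM in Xbp1 fl/fl and at 277, 49.3 and 191 CPM in Xbp1 LKO libraries. The Xbp1 LKO libraries lay below those of Xbp1 fl/fl on both diets, with HFS-fed replicate 2 far below the others. The log2 fold change was -1.26 (SE 0.53, 95% interval -2.41 to -0.10, adjusted p = 0.217) on chow and -1.41 (SE 0.46, -2.42 to -0.39, adjusted p = 0.124) on HFS. Fads1 was at -0.89 on chow (adjusted p = 0.741) without chow-fed Xbp1 LKO replicate 2.

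Elovl2 was read at 444, 580.5 and 582 CPM in chow-fed Xbp1 fl/fl and at 374 and 254 CPM in chow-fed Xbp1 LKO libraries. On HFS it was at 752, 616 and 594 CPM in Xbp1 fl/fl and at 524, 357 and 399.7 CPM in Xbp1 LKO libraries. The groups were apart on both diets, but the highest Xbp1 LKO library came near the lowest Xbp1 fl/fl library. The log2 fold change was -0.77 (SE 0.22, 95% interval -1.26 to -0.28, adjusted p = 0.0767) on chow and -0.62 (SE 0.20, -1.05 to -0.18, adjusted p = 0.114) on HFS. Elovl2 was at -0.52 on chow (adjusted p = 0.514) without chow-fed Xbp1 LKO replicate 2.

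Elovl1, which elongates very long saturated and monounsaturated chains, was read at 48.7, 43.8 and 35.9 CPM in chow-fed Xbp1 fl/fl and at 41.1 and 38.8 CPM in chow-fed Xbp1 LKO libraries, which lay within the Xbp1 fl/fl range. On HFS it was at 36.1, 38.9 and 31.0 CPM in Xbp1 fl/fl and at 47.1, 54.0 and 49.8 CPM in Xbp1 LKO libraries, all above Xbp1 fl/fl. Elovl1 rose by 0.51 on the log2 scale on HFS (SE 0.13, 95% interval 0.23 to 0.79, adjusted p = 0.0469). Leaving out any 1 of 9 of the 11 libraries moved the adjusted p past 0.05, up to 0.178. On chow the log2 fold change was -0.10 (SE 0.14, -0.41 to 0.21, adjusted p = 0.761) and changed sign to 0.23 when libraries were scaled by their totals, a scaling that moved the median of all genes by 0.33. It was -0.06 without chow-fed Xbp1 LKO replicate 2.

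Elovl3, an elongase known in mouse liver for its strong daily rhythm, overlapped between the groups in every comparison. In chow-fed Xbp1 fl/fl it was at 113, 129 and 373 CPM, in chow-fed Xbp1 LKO at 200.4 and 358 CPM, in HFS-fed Xbp1 fl/fl at 194, 144 and 115 CPM and in HFS-fed Xbp1 LKO at 208, 149.7 and 181 CPM. The 2 highest libraries were chow-fed Xbp1 fl/fl replicate 3 and chow-fed Xbp1 LKO replicate 2. The log2 fold change was 0.45 (SE 0.45, 95% interval -0.54 to 1.43) on chow and 0.25 (SE 0.41, -0.64 to 1.14) on HFS. Leaving out chow-fed Xbp1 fl/fl replicate 3 gave 1.21 on chow (adjusted p = 0.0499), and leaving out chow-fed Xbp1 LKO replicate 2 gave -0.04 (adjusted p = 0.993).

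The clock genes of these libraries were looked up after the Elovl3 values had been seen. Clock was at 65.0 and 61.5 CPM in the 2 libraries with the highest Elovl3 and at 33.9 to 44.3 CPM in the other 9. Arntl, its partner, was at 15.7 CPM in chow-fed Xbp1 LKO replicate 2 and at 0.953 to 3.76 CPM in all others, chow-fed Xbp1 fl/fl replicate 3 (3.73 CPM) included. Of the clock genes looked up, only Clock set both of these libraries apart from the other 9. Dbp, Tef, Per3 and Ciart were lowest in chow-fed Xbp1 LKO replicate 2 (35.7, 147.5, 15.7 and 4.06 CPM). In chow-fed Xbp1 fl/fl replicate 3 they were at 96.0, 267, 48.8 and 21.1 CPM, within the range of the other 9. The part of the clock genes in the Elovl3 values was not tested.

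Scd2 was close to the limit of detection, with 9 to 50 counts per library. Its levels were 1.43, 0.809 and 0.498 CPM in chow-fed Xbp1 fl/fl, 1.79 and 0.393 CPM in chow-fed Xbp1 LKO, 1.02 to 1.126 CPM in the 3 libraries of HFS-fed Xbp1 fl/fl and 1.43, 1.86 and 1.80 CPM in HFS-fed Xbp1 LKO libraries. The HFS-fed groups did not overlap, but the log2 fold change there was 0.65 (SE 0.48, 95% interval -0.40 to 1.70, adjusted p = 0.561), and on chow it was 0.27 (SE 0.56, -0.96 to 1.49, adjusted p = 0.848). Without chow-fed Xbp1 LKO replicate 2 the value on chow was 0.97 (adjusted p = 0.521).

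On chow, 1 of the 7 genes was called, Elovl5, where 4.75% of all genes tested were called, 3.02% lower and 1.73% higher. The libraries of 4 of the 7 did not overlap and were lower, against 15.9% of all genes. On HFS, 1 of the 7 was called, Elovl1, against 4.08% of all genes, 2.16% lower and 1.92% higher. There, 4 of the 7 were lower and 2 (Elovl1 and Scd2) higher without overlap, where 12.5% and 13.6% of all genes were. The median log2 fold change of the 7 was -0.77 on chow and -0.62 on HFS, and that of all genes was 0.00 and 0.01. Without chow-fed Xbp1 LKO replicate 2, 0 of the 7 were called on chow, where 69 genes were called in all. On HFS 1 was called in that fit, Elovl5 (adjusted p = 0.0242) in place of Elovl1 (adjusted p = 0.0526). DESeq2 called Fads2, Elovl2 and Elovl5 lower on chow (8.17% of all genes called by that tool). On HFS it called these 3 lower and Elovl1 higher (7.23% of all genes).

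**Figure D2:**
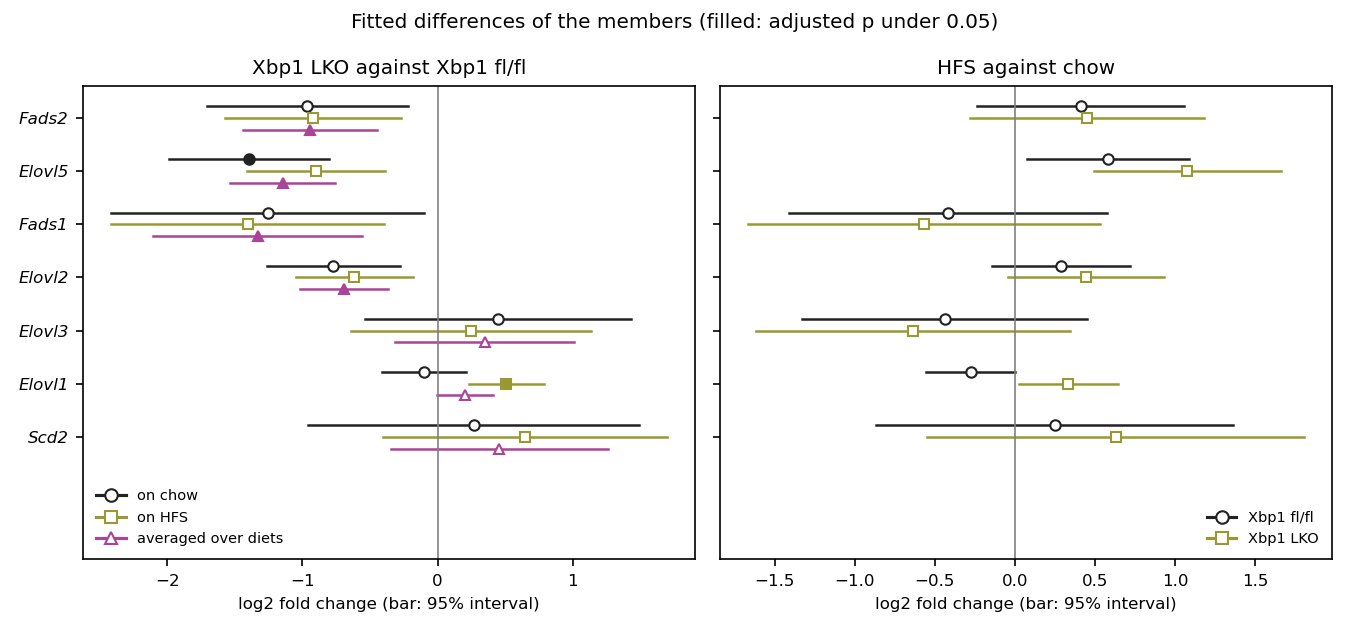
Fitted log2 fold change (point) with its 95% interval (bar) for each gene, Xbp1 LKO against Xbp1 fl/fl at left and HFS against chow at right. Filled points passed an adjusted p of 0.05. The averaged values of Fads2, Elovl5, Fads1 and Elovl2 are filled and lie between -1.33 and -0.69. Elovl5 on chow and Elovl1 on HFS are also filled at left, and no value of HFS against chow is filled.

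Averaged over both diets, a comparison added after the values above had been seen, the 4 polyunsaturated synthesis enzymes were lower in Xbp1 LKO hepatocytes. Fads1 fell by 1.33 on the log2 scale (SE 0.35, adjusted p = 0.0304), Elovl5 by 1.15 (SE 0.18, adjusted p = 0.0018), Fads2 by 0.94 (SE 0.23, adjusted p = 0.0195) and Elovl2 by 0.69 (SE 0.15, adjusted p = 0.0114). Thus 4 of 7 were called, all lower, where 11.9% of all genes were called and 6.64% were called lower and 5.25% higher. Scd2 (0.46, adjusted p = 0.497), Elovl3 (0.35, adjusted p = 0.533) and Elovl1 (0.21, adjusted p = 0.197) were not called.

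Over both diets the 6 Xbp1 fl/fl libraries held Fads1 at 409.6 to 699 CPM and the 5 Xbp1 LKO libraries at 49.3 to 330.4 CPM, so that no library crossed. For Fads2, Elovl2 and Elovl5, 4 of the 5 Xbp1 LKO libraries lay below every Xbp1 fl/fl library. The exception was in each case HFS-fed Xbp1 LKO replicate 1, at 486, 524 and 338 CPM. How many of all genes were apart in this way over both diets was not counted. Elovl5 was called in each of the 19 alternatives run. With 1 library left out, Fads2 and Elovl2 kept the call in 10 of 11 fits and Fads1 in 5 of 11. Without chow-fed Xbp1 LKO replicate 2 only Elovl5 of the 4 was called (-0.97, adjusted p = 0.00829), and Fads1 (-1.15, adjusted p = 0.153), Fads2 (-0.76, adjusted p = 0.101) and Elovl2 (-0.57, adjusted p = 0.0617) were not. The hepatocyte marker sum was lower in all 5 Xbp1 LKO libraries than in every Xbp1 fl/fl library. In Xbp1 fl/fl the sum was lower in every HFS than in every chow library, but 3 of the 8 markers were fitted higher there and 5 lower. Their median log2 fold change was -0.04, and none was called. Elovl5, Fads2 and Elovl2 were higher in every HFS than in every chow library of Xbp1 fl/fl, and Fads1 overlapped. In Xbp1 LKO the sums of the 2 diets overlapped. The part of the marker sum in the values of these 4 genes was not tested. All 8 hepatocyte markers were fitted lower on both diets, with a median log2 fold change of -0.78 on chow and -0.75 on HFS. Among them Alb fell by 2.14 on chow (adjusted p = 0.0107), and Hnf4a, a transcription factor of hepatocytes, had log2 fold changes of -0.08 on chow and -0.09 on HFS. All 8 endothelial markers were also fitted lower on both diets. Their sums were 37.0 to 90.7 CPM against 23.0 to 29.6 CPM on chow, and 74.0 to 124 CPM against 60.7 to 92.7 CPM on HFS. Averaged over diets, 5 of the 8 hepatocyte and 2 of the 8 endothelial markers were called lower, where 6.64% of all genes were. The medians of the 2 lists were -0.79 and -0.88. The part of the endothelial markers was not tested either.

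The comparison of HFS with chow within a genotype asks how the diet acts on these genes. None of the 7 was called in Xbp1 fl/fl hepatocytes (0.428% of all genes were) or in Xbp1 LKO hepatocytes (0.0601%). At an unadjusted p under 0.05 by edgeR there were 2 of 7 in each genotype, Elovl5 and Elovl1, against 8.95% of all genes in Xbp1 fl/fl and 12.7% in Xbp1 LKO. Elovl5 had the largest value in both, with a log2 fold change of 0.58 in Xbp1 fl/fl (SE 0.23, 95% interval 0.08 to 1.09, adjusted p = 0.477) and 1.08 in Xbp1 LKO (SE 0.27, 0.49 to 1.66, adjusted p = 0.186). DESeq2 called Elovl5 in Xbp1 LKO (1.08 on the log2 scale, adjusted p = 0.00803, with 1.54% of all genes called) and none of the 7 in Xbp1 fl/fl.

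All 3 HFS-fed Xbp1 fl/fl libraries exceeded all 3 chow-fed ones for Elovl5, Fads2 and Elovl2, where 6.33% of all genes did so. Their log2 fold changes were 0.58, 0.41 (SE 0.30) and 0.29 (SE 0.20). In Xbp1 LKO hepatocytes the same was true of Elovl5 and Elovl1, where 16.7% of all genes did so. Fads1 pointed the other way in both genotypes, with log2 fold changes of -0.42 (SE 0.45, adjusted p = 0.872) and -0.57 (SE 0.50, adjusted p = 0.674) and overlapping libraries. Averaged over genotypes, also added later, Elovl5 was at 0.83 (SE 0.18, adjusted p = 0.0514) and none of the 7 was called (by edgeR 2 had an unadjusted p under 0.05, where 14.8% of all genes had, and DESeq2 called Elovl5 among 3.7% of all genes), against 1.1% of all genes. All 8 endothelial markers were fitted higher on HFS than on chow in both genotypes, beside Elovl5, as were all 7 tested stellate cell markers, and in Xbp1 LKO all 8 macrophage markers. None of these was called within a genotype. Averaged over genotypes, 1 of the 8 endothelial and 2 of the 7 tested stellate cell markers were called higher, against 1.1% of all genes called. The median log2 fold changes of these 2 lists were 1.14 and 1.49, and no macrophage marker was called there. The part of these markers in the Elovl5 values was not tested.

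The level of one gene relative to another in the same library does not depend on how libraries are scaled. The ratio of Elovl5 to Fads1 counts was 0.484, 0.431 and 0.665 in chow-fed Xbp1 fl/fl and 0.464 and 0.473 in the Xbp1 LKO libraries on chow. On HFS it was 1.01, 1.03 and 1.05 in Xbp1 fl/fl and 1.22, 3.88 and 1.19 in Xbp1 LKO libraries. All 6 HFS libraries were thus above all 5 chow libraries, whatever their genotype. The ratio of Fads2 to Fads1, the desaturases at the entry and at the later step, was likewise 0.725 to 0.939 in the chow and 1.19 to 3.95 in the HFS libraries. Among the 21 ratios of 2 members, these 2 separated the diets without overlap. The ratio of Fads1 to Elovl1 was the 1 of 21 that separated the genotypes, at 11.6 to 16.0 in Xbp1 fl/fl and 0.913 to 8.04 in Xbp1 LKO libraries. These ratios were picked after their values were seen and are given as a description without a test.

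**Figure D3:**
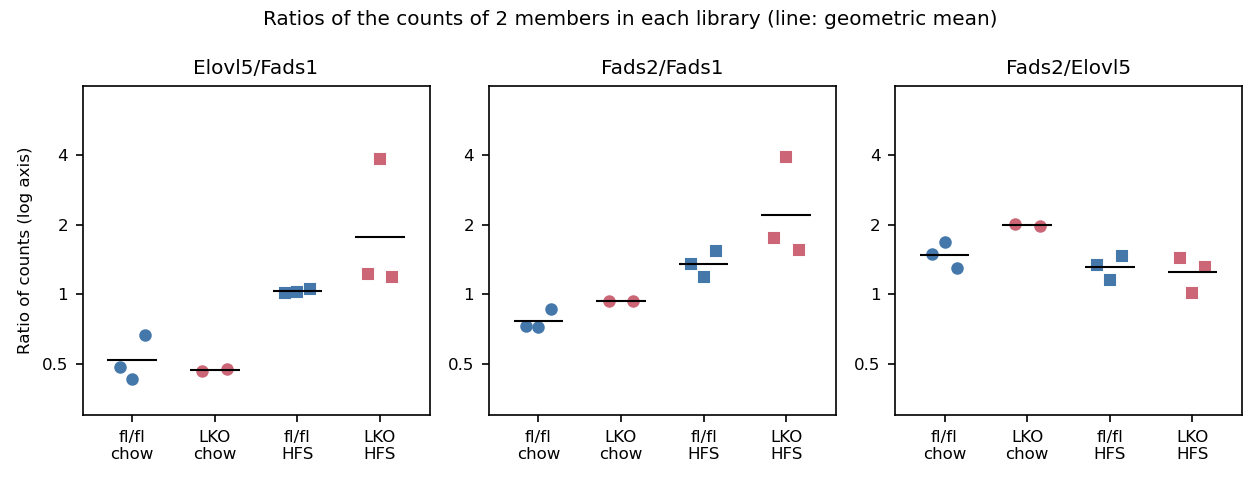
Ratio of the counts of 2 members within a library (log axis) by genotype and diet, with a line at the geometric mean of each group. Elovl5/Fads1 and Fads2/Fads1 lie higher in all 6 HFS libraries than in all 5 chow libraries, and HFS-fed Xbp1 LKO replicate 2 is highest in both, while Fads2/Elovl5 overlaps between diets.

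The interaction of genotype and diet was tested for each gene, to ask whether the loss of Xbp1 had a different effect on the 2 diets. By edgeR, 0 of 13303 genes were called (0%), with 816 (6.13%) at an unadjusted p under 0.05, and DESeq2 called 31. None of the 7 was called by either tool. The largest was Elovl1, with a log2 difference of 0.61 between the genotype effects (SE 0.19, 95% interval 0.19 to 1.02, unadjusted p = 0.00792, adjusted p = 0.687). For Elovl5 the difference was 0.49 (SE 0.35, -0.27 to 1.26) and for Fads2 0.04 (SE 0.44, -0.93 to 1.01).

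The other desaturases and elongases form a list of 10 genes, of which 6 passed the filter on low counts. On chow 1 of the 6 fell and 0 rose, and on HFS 2 fell and 0 rose. Scd1, the main stearoyl-CoA desaturase of liver, was the most abundant of the family. It was at 8541, 5563 and 6259 CPM in chow-fed Xbp1 fl/fl and at 1493 and 349.9 CPM in chow-fed Xbp1 LKO libraries, and fell by 2.88 on the log2 scale (SE 0.56, adjusted p = 0.0154). On HFS it was at 21769, 16638 and 18424 CPM in Xbp1 fl/fl and at 6634, 3718 and 2870.0 CPM in Xbp1 LKO libraries, and fell by 2.10 (SE 0.46, adjusted p = 0.0296). Without chow-fed Xbp1 LKO replicate 2 the value on chow was -2.19 (adjusted p = 0.0732). The call on HFS was lost without any 1 of 5 libraries, the 3 of Xbp1 fl/fl and replicates 2 and 3 of Xbp1 LKO on HFS, with values down to -1.87 and an adjusted p up to 0.135. Scd3, the other gene called on HFS, had 10 to 18 counts in Xbp1 fl/fl and 0 to 5 in Xbp1 LKO libraries, and 6.57% of its 50-base windows occur in other genes, among them Scd1, so its call, which was lost in 8 of 11 fits with 1 library left out, is uncertain.

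The tested enzymes without a call had log2 fold changes of -0.22 and -0.08 for Elovl6, which elongates palmitate, -0.20 and -0.14 for Degs1, a ceramide desaturase, -0.04 and -0.15 for Fads6, and 0.53 and 0.08 for Fads3, on chow and HFS respectively. Elovl4 had 0 counts in all libraries, and Elovl7, Degs2 and Scd4 had at most 8 in any library.

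**Figure D4:**
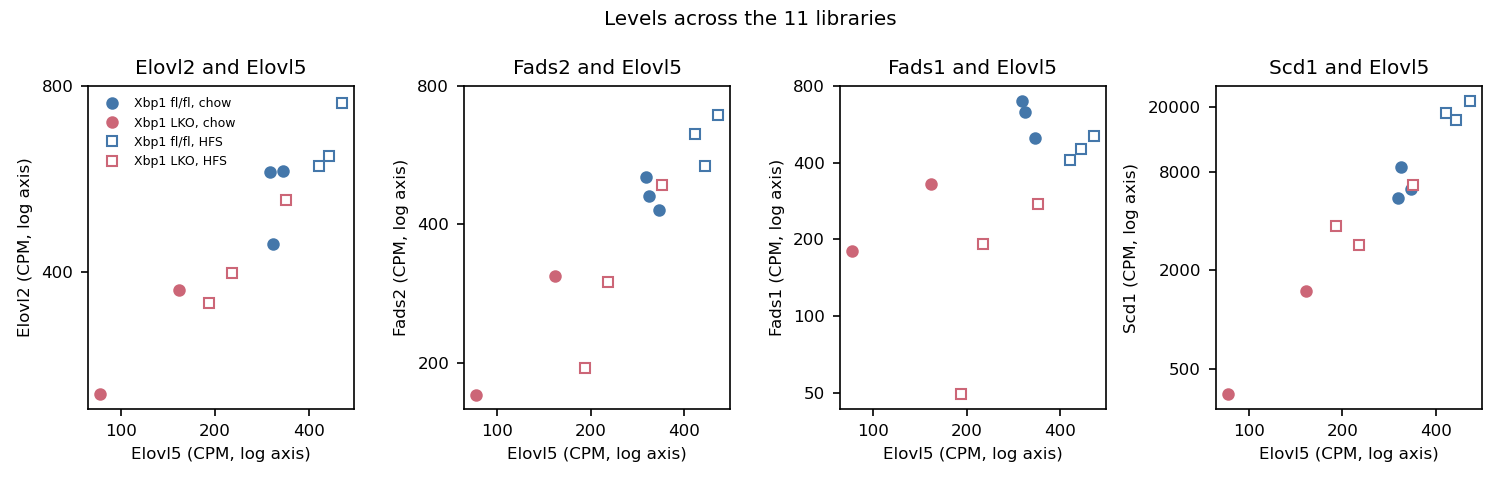
Levels of Elovl2, Fads2, Fads1 and Scd1 against Elovl5 in the 11 libraries (CPM, both axes log). Elovl2, Fads2 and Scd1 rise with Elovl5 across all libraries, whereas in the Fads1 panel each HFS group lies to the right of and below the chow group of its genotype by its mean.

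Across the 11 libraries, among 7496 genes with a mean of at least 10 CPM, the gene most like Elovl5 was Scd1 (Pearson's r 0.982 of log2 levels), followed by Elovl2 (0.958) and Spp2 (0.933). The genes most like Elovl2 were Ociad1 (0.971), Elovl5 and Mug1 (0.954), and those most like Fads2 were Cr1l (0.946), Elovl2 (0.94) and Lman1 (0.927). Fads1 was most like Sult5a1 (0.962), Acacb (0.951) and Rdh16f2 (0.944), and its r was 0.78 with Fads2 and 0.545 with Elovl5. With the group means taken out, r was 0.91 for Fads2 and Elovl5, 0.899 for Fads1 and Fads2 and 0.877 for Elovl2 and Elovl5, so replicates of a group also differed together. Elovl3 was most like Gnl3 (0.925), Elovl1 like Dbr1 (0.874) and Scd2 like Fam172a (0.899). Libraries of a group share genotype and diet, and the hepatocyte marker sum also differed between the genotypes. These correlations are descriptions.

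In fatty acid synthesis, which supplies the chains that elongases extend, 3 of 8 genes fell on chow and 0 of 8 on HFS, with 0 rising on either diet. Those on chow were Acly, ATP citrate lyase (-1.75, SE 0.31, adjusted p = 0.0101), Acss2, acetyl-CoA synthetase (-1.36, SE 0.25, adjusted p = 0.0119), and Fasn, fatty acid synthase (-1.20, SE 0.26, adjusted p = 0.0242). None of the 3 was called on chow without chow-fed Xbp1 LKO replicate 2, where Acly was at -1.28 and Fasn at -0.85. Fasn was also lost without chow-fed Xbp1 fl/fl replicate 1. Averaged over diets 6 of the 8 fell. The median log2 fold change of this list was -1.07 on chow and -0.69 on HFS, beside -0.77 and -0.62 for the 7 desaturases and elongases.

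Partner enzymes complete the elongation cycle after the ELOVL step. Of 5 tested, none was called on chow, and on HFS Hacd2, a dehydratase of the cycle, rose by 0.66 on the log2 scale (SE 0.09, adjusted p = 0.00322). Hacd2 was at 31.8, 31.8 and 32.7 CPM in HFS-fed Xbp1 fl/fl and at 50.1, 51.8 and 50.7 CPM in HFS-fed Xbp1 LKO libraries, the diet and genotype in which Elovl1 was highest. Among 5 tested electron donors of the desaturases, Cyb5r1, a cytochrome b5 reductase family gene, rose on chow (1.70, SE 0.41, adjusted p = 0.037), a call lost in 6 of 11 fits with 1 library left out and at 0.56 (adjusted p = 0.606) without chow-fed Xbp1 LKO replicate 2. The Hacd2 call was kept in all 11.

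Acyl-CoA synthetases activate fatty acids for these reactions. Of 6 tested, 3 fell on chow, Acsl3 (-1.01, adjusted p = 0.008), Slc27a5 (-1.015, adjusted p = 0.0231) and Acsl5 (-1.06, adjusted p = 0.025), and 1 fell on HFS, Slc27a5 (-1.02, adjusted p = 0.0131). With 1 library left out, Acsl3 kept its call on chow in all 11 fits, Slc27a5 and Acsl5 each lost theirs on chow in 2 of 11 (at -0.72 and -0.75 without chow-fed Xbp1 LKO replicate 2), and Slc27a5 lost its call on HFS in 3 of 11. None of 5 tested phospholipid acyltransferases and none of 9 genes of peroxisomal chain shortening, the step that completes docosahexaenoic acid, was called in either comparison.

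Among 12 transcriptional regulators of these genes, Insig1, a SREBP retention protein, fell on chow (-1.37, SE 0.29, adjusted p = 0.023) and Pparg rose on HFS (1.35, SE 0.25, adjusted p = 0.0138). Srebf1, which encodes SREBP-1, was at 318, 260.1 and 162 CPM in chow-fed Xbp1 fl/fl, 147 and 52.4 CPM in chow-fed Xbp1 LKO, 390.0, 599 and 905 CPM in HFS-fed Xbp1 fl/fl and 320, 415 and 220.2 CPM in HFS-fed Xbp1 LKO libraries. It was not called on either diet (-1.31, adjusted p = 0.152, and -0.99, adjusted p = 0.239) and fell in the average over diets (-1.15, adjusted p = 0.0356). Averaged over genotypes Srebf1 was higher on HFS (1.52, adjusted p = 0.0494), as was Scd1 (1.87, adjusted p = 0.0326). With 1 library left out Srebf1 lost its call for genotype in 7 of 11 fits and for diet in 8 of 11, Scd1 for diet in 6 of 11, and Insig1 and Pparg in 3 of 11 each. Insig1 on chow was at -1.17 (adjusted p = 0.24) without chow-fed Xbp1 LKO replicate 2.

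The 15 sterol synthesis genes, which answer chiefly to SREBP-2, are given for comparison. In Xbp1 fl/fl hepatocytes 11 of 15 fell on HFS and 0 rose, with a median log2 fold change of -1.77, and the median of the 7 desaturases and elongases was 0.25. In Xbp1 LKO hepatocytes 2 of 15 fell on HFS and 0 rose, with all 15 fitted lower and a median of -1.44. For the genotype, 5 of 15 fell on chow and 1 of 15 on HFS, with medians of -1.16 and -0.32, and all 15 were fitted lower on chow but 10 of 15 on HFS. None of the 5 called on chow, Sc5d, Pmvk, Hmgcs1, Lss and Fdft1, was called without chow-fed Xbp1 LKO replicate 2 (adjusted p from 0.118 for Sc5d to 0.24 for Fdft1). The call on HFS, Pmvk, was lost in 7 of 11 fits with 1 library left out.

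**Figure D5:**
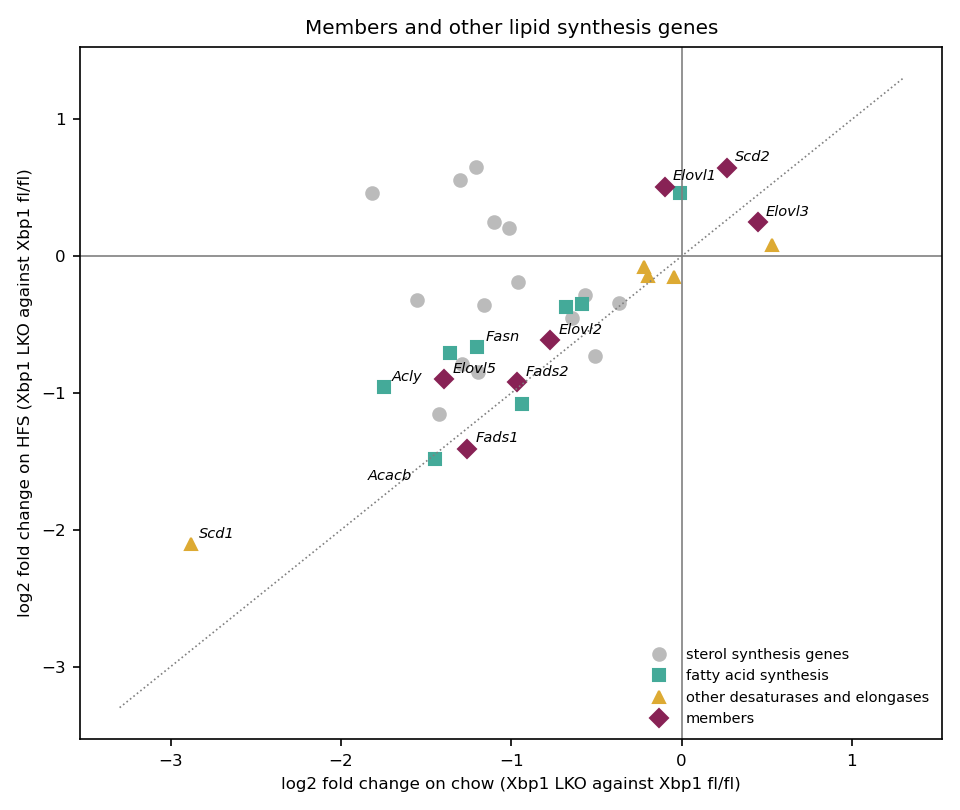
Log2 fold change of Xbp1 LKO against Xbp1 fl/fl on chow (horizontal) and on HFS (vertical) for the 7 members and 3 lists of lipid synthesis genes, with a dotted line of equal values. Fads2, Elovl5, Fads1 and Elovl2 lie below 0 on both axes with most fatty acid synthesis genes, while several sterol synthesis genes are below 0 on chow only. Scd3 is not drawn because its counts were 0 in both chow-fed Xbp1 LKO libraries.

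Markers of other liver cells were low beside those of hepatocytes. The sum of 8 macrophage markers was 15.9 to 80.8 CPM, of 8 endothelial markers 23.0 to 124 CPM, of 8 stellate cell markers 7.17 to 50.4 CPM and of 8 lymphocyte markers 0.398 to 3.14 CPM over all libraries. In the HFS comparison of the genotypes, in which Elovl1 rose, all 8 macrophage markers were fitted higher, with sums of 31.4 to 45.5 CPM in Xbp1 fl/fl and 43.2 to 80.8 CPM in Xbp1 LKO libraries, and none was called. The part of these cells in the Elovl1 value was not tested. On chow, all 8 macrophage and all 7 tested stellate cell markers were fitted lower in Xbp1 LKO hepatocytes, beside the 4 polyunsaturated synthesis enzymes, and none was called. None of the 4 tested adipocyte markers was called on either diet. The sums of 8 cholangiocyte markers were 18.4 to 37.0 CPM. Of the 3 tested, 1 was called lower in Xbp1 LKO hepatocytes on chow, where 3.02% of all genes were, and none on HFS.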

How the data were processed

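Hepatocyte RNA was sequenced as single-end 50-base reads. The values used are the deposited gene counts, made by the authors and not normalised. The submitters' processing notes name cutadapt 1.13, STAR, HTSeq 0.6.1p1, DESeq2 and mm10, whereas the published methods describe kallisto, so how a read shared by similar genes was counted is uncertain. Groups came from the sample titles. Genes were filtered with filterByExpr (minimum count 10), which left 13303, scaled by TMM and fitted in edgeR 4.0.16 (R 4.3.3) with 1 mean per group over all 11 libraries. Quasi-likelihood tests were two-sided, adjusted by Benjamini-Hochberg, and calls were made at 0.05. The script was tested on simulated counts. CPM is a count scaled to the TMM-scaled library total. Symbols, positions and exon lengths came from GENCODE M21 on GRCm38. Alternatives used DESeq2 1.42.0, other scalings, no filter, only the groups compared, a replicate block and each library left out. For correlations, an average of 2 counts, scaled to library size, was added to each gene before its CPM was put on the log2 scale. The 7 genes and the gene lists were chosen with earlier results of these data known. The 7 genes, the called genes of each list (at most the 5 with the smallest p), the 3 genes most like each member and Xbp1 are named. Others are said to have been picked later.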

Additional observations from a re-analysis of the deposited data

Results flagged for a closer look

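Elovl1 was the gene of the 7 whose HFS libraries lay on opposite sides of the chow mean in the 2 genotypes. Every HFS-fed Xbp1 fl/fl library lay below the chow-fed Xbp1 fl/fl mean, and every HFS-fed Xbp1 LKO library lay above the chow-fed Xbp1 LKO mean. The Xbp1 fl/fl libraries overlapped between diets (35.9 to 48.7 CPM on chow and 31.0 to 38.9 CPM on HFS), and those of Xbp1 LKO did not. How many of all genes met this rule was not counted. The log2 difference between the genotype effects on HFS and on chow was 0.61 (SE 0.19), with an unadjusted p of 0.00792 and an adjusted p of 0.687 by edgeR, so that the test of the difference missed the threshold. Groups of 2 or 3 libraries were not searched for single libraries far from the others.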

How the results depend on the processing

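By edgeR, 632 genes changed with genotype on chow, 543 with genotype on HFS, 57 with diet in Xbp1 fl/fl, 8 with diet in Xbp1 LKO, 0 by interaction, 1582 with genotype averaged over diets and 146 with diet averaged over genotypes. DESeq2 gave 1115, 987, 175, 210, 31 and, for averaged diet, 522. Without the filter the counts were 1507, 1438, 499, 722, 269 and, for averaged diet, 1003. Scaling by library totals gave 3000 (2685 higher and 315 lower) on chow, 1483 on HFS and 5802 averaged, and moved the median of all genes by 0.33, 0.27 and 0.31 on the log2 scale. Fitting only the groups compared gave 233 on chow and 0 for diet in Xbp1 LKO (8 in the fit of all libraries). Of the 7 genes, DESeq2 called 3 on chow, 4 on HFS, 1 for diet in Xbp1 LKO and 1 for averaged diet, and the unfiltered fit called 4, 5, 2 and 4, with 1 for diet in Xbp1 fl/fl. Only the groups compared gave 2 on HFS, and library totals and the upper quartile each gave 1 for averaged diet. Without the filter, Scd1 on chow had an adjusted p of 5.92e-20 by edgeR at a log2 fold change of -2.855. With the filter these were 0.0154 and -2.881, so calls of the unfiltered fit are not on the same footing as the others.

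Same-numbered libraries did not deviate together (15 pairs, r from -0.199 to 0.231, mean -0.009). Deviations were taken from means of 2 or 3 libraries, so a weak pairing by number could be missed. With a replicate block 455 genes changed on chow, 412 on HFS and 19 with diet in Xbp1 LKO (53 with the number that the file of chow-fed Xbp1 LKO replicate 2 carries), and 2 of the 7 genes on HFS and 1 for averaged diet under either numbering. The Xbp1 value on chow lost its call with library totals (-0.54), only the groups compared (-0.88) and the replicate block (-0.85).

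With 1 library left out, the genes called ranged from 69 to 762 on chow, 184 to 662 on HFS, 6 to 59 and 0 to 36 for diet in Xbp1 fl/fl and Xbp1 LKO, 846 to 1735 for averaged genotype and 58 to 266 for averaged diet. Of the 7 genes, 0 to 2 were called on chow and on HFS, 1 to 5 for averaged genotype and 0 to 1 for averaged diet. The lowest counts on chow and for averaged genotype were those without chow-fed Xbp1 LKO replicate 2. Xbp1 on chow ranged from -1.10 to -0.68, and its call was lost without chow-fed Xbp1 LKO replicate 1 (adjusted p = 0.0919) and replicate 2 (0.0588). Directions turned, with library totals, for Elovl1 on chow (0.23) and the Fads2 interaction (-0.028). They turned with 1 library left out for Scd2 (-1.20 to 0.97), Elovl1 (-0.21 to 0.0042) and Elovl3 (-0.036 to 1.21) on chow, for diet in Xbp1 fl/fl for Scd2 (-0.057 to 0.73) and Elovl3 (-0.73 to 0.32), for diet in Xbp1 LKO for Scd2 (-0.070 to 2.09), for averaged genotype for Scd2 (-0.28 to 0.81) and for averaged diet for Elovl1 (-0.029 to 0.079). Interaction values that turned were those of Fads1 (-0.67 to 0.35), Fads2 (-0.36 to 0.53), Scd2 (-0.32 to 1.84), Elovl2 (-0.10 to 0.46) and Elovl3 (-0.96 to 0.28). Fewer libraries enter each of these fits, and beyond that the cause was not tested. Of the other values of single genes, 1856 kept direction and side of the threshold, 188 lost a call and 38 gained one. Precision was limited by 2 libraries of chow-fed Xbp1 LKO and, for Scd2, by 9 to 50 counts per library.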
